A study of Mus musculus with 6 samples.

Results

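Slit1, Slit2 and Slit3, their receptors Robo1, Robo2 and Robo3, and the cytoplasmic partners Srgap1, Srgap2 and Srgap3 were measured by RNA-seq in cultured mouse retinal ganglion cells (RGCs), the neurons whose axons form the optic nerve. These 9 genes were picked by name from the known ligand, receptor and effector families, and the deposited tables held all 9 among 43346 Ensembl mouse genes. Each culture received 1 of 3 adeno-associated viruses (AAVs) of the AAV2 type, with 2 libraries per group and 6 libraries in all. The control AAV carried EGFP, the Sox11 AAV carried *Sox11* followed by EGFP, and the Sox11K91A AAV carried the same construct with lysine 91 changed to alanine, a change made to block the attachment of SUMO to Sox11. The design asks how the transcriptome of RGCs changes with extra Sox11, a transcription factor of the SRY-box family, and whether the SUMO site matters for that change.

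The RGCs of every group had been purified by immunopanning on CD90.1, the Thy1 surface protein, and grown on poly-D-lysine and laminin with forskolin, BDNF and CNTF. Wells of 250000 cells were given 1.5 μl of virus 4 h after plating, a dose of about 100000 vector genomes per cell. The medium was replaced 5.5 h and 24 h after the virus, and RNA was taken 72 h after plating. The age of the cells is given as embryonic day 18 for the RNA-seq and as postnatal day 2 in the general culture methods, for all groups alike. The names of the deposited tables give postnatal day 0. The mice of the study were C57BL/6. The promoter of the viral constructs and whether the 2 libraries of a group came from separate cultures are not given in the sources used here. The p-values therefore measure only the spread between these libraries, which may be technical.

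Slits are large secreted proteins that bind the immunoglobulin domains of Robo receptors on growth cones and mostly repel axons. In the visual system Slit1 and Slit2 shape the path of RGC axons within the retina and around the optic chiasm, and Robo2 is the main Slit receptor of RGCs. Inside the cell, Slit-Robo GTPase-activating proteins (srGAPs) bind Robo through an SH3 domain, bend membrane through an F-BAR domain and switch off small GTPases that control the actin skeleton.

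*Sox11* itself was the check of the labels. Its level in CPM, counts scaled to the size of the library, was 234 and 332 in the control libraries, 9178 and 14591 in the Sox11 libraries, and 11971 and 7026 in the Sox11K91A libraries, with viral and endogenous transcripts counted together. The log2 fold change was 5.38 (SE 0.33, adjusted p = 0.0075, limma-voom) for Sox11 and 5.04 (SE 0.33, adjusted p = 0.0092, limma-voom) for Sox11K91A against control. The libraries held between 27521982 and 37061718 counts. Control replicate 2 and Sox11 replicate 2 stood apart on the second principal component, with 18.2% of the variance, and had the lowest *Xist* levels, 95.9 and 254 CPM against 400 to 526 CPM in the other 4. Calls are therefore also given without these 2 libraries. RGC markers were high throughout. *Rbpms*, an RNA-binding protein that marks RGCs, was between 202 and 262 TPM (counts scaled by gene length and by the library total). The 10 RGC markers summed to 9285 and 10296 TPM in control, 5619 and 8190 TPM in Sox11, and 7167 and 8401 TPM in Sox11K91A libraries. *Thy1*, the gene of the panning antigen, was 940 and 822 TPM in control, 341 and 62 TPM in Sox11, and 200 and 402 TPM in Sox11K91A libraries. All 4 Müller glia markers were detected. Their sum was 273 and 280 TPM in control, 508 and 520 TPM in Sox11, and 490 and 491 TPM in Sox11K91A libraries. It was made up almost wholly of *Glul* and *Vim*, while *Rlbp1* and *Slc1a3* stayed at 3.46 TPM or lower. Their part in the results below was not tested, and in such bulk RNA fewer cells of a type and less RNA per cell cannot be told apart.

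The receptor *Robo1* and the 3 srGAP genes were the members called higher with Sox11, and the Slit ligands were not called changed in either direction. *Robo2* also lay above control with either virus but was not called. For orientation, the promoter windows of the 4 genes called higher are shown first, each from 250 bases before to 50 bases after the start site in the direction of the gene, from RefSeq on GRCm38.p6. Capitals mark ACAATG, which with ACAAAG is a typical core of the letters that SRY-box proteins bind; both strands were searched for both strings.
Robo1, chr16:72662899-72663198, + strand: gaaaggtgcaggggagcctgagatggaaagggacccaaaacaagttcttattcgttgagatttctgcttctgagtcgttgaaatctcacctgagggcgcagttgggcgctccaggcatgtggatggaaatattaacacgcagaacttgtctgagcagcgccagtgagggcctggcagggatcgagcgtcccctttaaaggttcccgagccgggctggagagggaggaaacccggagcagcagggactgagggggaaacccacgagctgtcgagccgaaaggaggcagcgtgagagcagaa
Srgap1, chr10:122047266-122047565, − strand: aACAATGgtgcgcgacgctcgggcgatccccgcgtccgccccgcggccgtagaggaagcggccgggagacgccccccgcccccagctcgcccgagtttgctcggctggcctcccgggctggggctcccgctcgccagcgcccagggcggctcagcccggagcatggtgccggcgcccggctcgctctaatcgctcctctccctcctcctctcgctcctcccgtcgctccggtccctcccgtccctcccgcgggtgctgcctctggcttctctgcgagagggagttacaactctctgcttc
Srgap2, chr1:131527312-131527611, − strand: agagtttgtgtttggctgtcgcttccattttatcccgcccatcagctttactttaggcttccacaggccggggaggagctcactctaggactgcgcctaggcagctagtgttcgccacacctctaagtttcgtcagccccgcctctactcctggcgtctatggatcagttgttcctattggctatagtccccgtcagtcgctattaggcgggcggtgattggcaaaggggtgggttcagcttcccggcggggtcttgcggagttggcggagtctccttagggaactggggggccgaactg
Srgap3, chr6:112947217-112947516, − strand: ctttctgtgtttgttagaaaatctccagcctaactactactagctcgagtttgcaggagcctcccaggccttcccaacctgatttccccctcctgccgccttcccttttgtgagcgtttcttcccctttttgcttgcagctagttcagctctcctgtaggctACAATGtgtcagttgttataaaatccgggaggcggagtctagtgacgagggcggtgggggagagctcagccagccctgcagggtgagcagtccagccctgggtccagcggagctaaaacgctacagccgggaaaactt

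ACAATG stood once in the *Srgap1* window, 249 bases before the start site, and once in the *Srgap3* window, 88 bases before it. The *Robo1* and *Srgap2* windows held neither string, and neither did the windows of *Slit2*, *Slit3*, *Robo3* and the 3 starts of *Robo2*. Of all 32851 mouse promoter windows of this length, 12.6% held ACAATG, 18.7% held ACAAAG and 28.6% held at least 1 of the pair, and a match is a description of letters, not a binding site. GC content was 73.3% in the *Srgap1* window, 57.7% for *Srgap2*, 57.0% for *Robo1* and 54.7% for *Srgap3*, against a median of 52.7% over all windows. RefSeq start sites and the GENCODE gene spans given below do not always meet. The *Robo1* start used here lies 354843 bases inside its span, and 2 of the 3 *Robo2* starts lie outside the span of that gene. The *Slit3* window had the highest GC content of the members' windows, 78.3%.

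*Robo1*, a single-pass receptor of Slits (chr16:72308306-73046095, + strand; gene positions here and below are from GENCODE on GRCm38), was the member with the largest rise. It was at 17.7 and 8.80 CPM in control, 49.8 and 99.4 CPM in Sox11, and 64.1 and 38.0 CPM in Sox11K91A libraries, from 339 to 3295 counts. All 4 libraries with Sox11 virus lay above both control libraries, and the 2 libraries of a group differed by between 0.76 and 1.01 on the log2 scale. *Robo1* rose 5.86-fold with Sox11 (log2 2.55, SE 0.49, adjusted p = 0.019, limma-voom) and 4.11-fold with Sox11K91A (log2 2.04, SE 0.49, adjusted p = 0.046, limma-voom). The 95% confidence intervals of the log2 fold change ran from 1.39 to 3.71 and from 0.87 to 3.20. Leaving out single libraries moved the log2 fold change between 2.00 and 3.04 for Sox11, and the call was lost without control replicate 2 (2.00, adjusted p = 0.084) or without Sox11 replicate 2 (2.04, adjusted p = 0.10), both by limma-voom. For Sox11K91A the call was lost without any 1 of the 4 libraries compared, with log2 fold changes from 1.48 to 2.49 and adjusted p-values by limma-voom of 0.073 without control replicate 1, 0.19 without control replicate 2, 0.30 without Sox11K91A replicate 1 and 0.071 without Sox11K91A replicate 2.

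*Robo2* (chr16:73891839-74411825, − strand) is the receptor through which RGC axons mainly sense Slits. It had the highest group mean of the members on the TPM scale, which accounts for gene length, in every group. In control replicate 2, however, it was at 32.2 TPM, below *Srgap3* at 42.7 and *Srgap1* at 35.7 TPM. With Sox11K91A its TPM range overlapped that of *Srgap1*. The level of *Robo2* was 226 and 109 CPM in control, 294 and 313 CPM in Sox11, and 311 and 265 CPM in Sox11K91A libraries. Neither group with Sox11 virus overlapped with control, but the control libraries differed from each other by 1.06 on the log2 scale, more than either fold change. *Robo2* did not pass the threshold with Sox11 (log2 0.95, SE 0.32, adjusted p = 0.076, limma-voom) or with Sox11K91A (log2 0.87, SE 0.32, adjusted p = 0.12, limma-voom). Without control replicate 1 both log2 fold changes were larger and called, 1.48 (adjusted p = 0.019) and 1.40 (adjusted p = 0.023), and without control replicate 2 they were 0.42 (adjusted p = 0.096) and 0.34 (adjusted p = 0.18), by limma-voom.

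*Robo3* (chr9:37415669-37433246, − strand), the divergent receptor of commissural axons, was barely detected, with 3 and 9 counts in control, 6 and 10 in Sox11, and 6 and 2 in Sox11K91A libraries. It was below the filter on low counts and was not tested, so 8 of the 9 genes were. A difference in *Robo3* was not detectable at this depth.

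Among the receptors, the balance between *Robo1* and *Robo2* therefore differed between libraries. Counts of *Robo2* were 12.8 and 12.4 times those of *Robo1* in the control libraries, 5.90 and 3.15 times in the Sox11 libraries, and 4.85 and 6.99 times in the Sox11K91A libraries. *Robo1* made up 4.72% and 6.22% of the summed TPM of the Robo genes in control, 10.3% and 19.0% in Sox11, and 11.6% and 9.27% in Sox11K91A libraries. Every library with Sox11 virus thus had a larger *Robo1* share than either control, with *Robo2* still the larger of the pair in all 6.

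*Srgap1* (chr10:121780991-122047315, − strand), a GTPase-activating protein best known for acting on Cdc42, was the srGAP with the largest fold change. It was at 232 and 149 CPM in control, 392 and 429 CPM in Sox11, and 417 and 354 CPM in Sox11K91A libraries. All libraries with Sox11 virus lay above both controls, and the 2 control libraries were further apart than those of the other groups. *Srgap1* rose 2.20-fold with Sox11 (log2 1.14, SE 0.23, adjusted p = 0.021, limma-voom) and 2.06-fold with Sox11K91A (log2 1.04, SE 0.23, adjusted p = 0.036, limma-voom). Its call with Sox11 was lost only without Sox11 replicate 2 among the libraries left out (adjusted p = 0.14), and its call with Sox11K91A was lost without control replicate 2 (adjusted p = 0.063), Sox11K91A replicate 1 (adjusted p = 0.31) or Sox11K91A replicate 2 (adjusted p = 0.11), by limma-voom.

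*Srgap3* (chr6:112717971-112947266, − strand), also called WRP and known for acting on Rac1, was at 264 and 193 CPM in control, 401 and 484 CPM in Sox11, and 457 and 378 CPM in Sox11K91A libraries. The order of the groups was that of *Srgap1*, with no overlap between either Sox11 group and control. *Srgap3* rose 1.95-fold with Sox11 (log2 0.96, SE 0.20, adjusted p = 0.024, limma-voom) and 1.84-fold with Sox11K91A (log2 0.88, SE 0.20, adjusted p = 0.042, limma-voom). The call with Sox11 was lost without control replicate 2 (adjusted p = 0.055) or Sox11 replicate 2 (adjusted p = 0.16), and the call with Sox11K91A without control replicate 2 (adjusted p = 0.091), Sox11K91A replicate 1 (adjusted p = 0.37) or Sox11K91A replicate 2 (adjusted p = 0.12), by limma-voom.

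*Srgap2* (chr1:131285251-131527352, − strand), which induces filopodia and slows the migration of neurons, had the smallest change of the 3. It was at 127 and 104 CPM in control, 166 and 188 CPM in Sox11, and 160 and 148 CPM in Sox11K91A libraries. Again the groups with Sox11 virus did not overlap with control. *Srgap2* rose 1.54-fold with Sox11 (log2 0.62, SE 0.16, adjusted p = 0.037, limma-voom), and with Sox11K91A it did not pass the threshold (1.34-fold, log2 0.42, SE 0.16, adjusted p = 0.13, limma-voom). The call with Sox11 was lost without control replicate 2 (adjusted p = 0.070), Sox11 replicate 1 (adjusted p = 0.061) or Sox11 replicate 2 (adjusted p = 0.22), and without control replicate 1 *Srgap2* was called with Sox11K91A too (log2 0.57, adjusted p = 0.046), by limma-voom.

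*Slit1* (chr19:41600257-41743665, − strand), a ligand made by neurons, stayed between 66.6 and 95.1 CPM over the 6 libraries. It was at 95.1 and 76.8 CPM in control, 83.5 and 66.6 CPM in Sox11, and 84.4 and 85.3 CPM in Sox11K91A libraries. Both groups with Sox11 virus overlapped with control, and the Sox11K91A libraries lay just above the Sox11 libraries. The log2 fold change was −0.20 with Sox11 (95% confidence interval −0.60 to 0.21, adjusted p = 0.44, limma-voom) and −0.01 with Sox11K91A (−0.42 to 0.40, adjusted p = 0.97, limma-voom).

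*Slit2* (chr5:47983138-48307733, + strand), the ligand studied most at the optic chiasm, was at 112 and 57.5 CPM in control, 92.6 and 84.9 CPM in Sox11, and 95.1 and 83.4 CPM in Sox11K91A libraries. The control libraries enclosed all the others. Its log2 fold change was 0.15 in both comparisons, with 95% confidence intervals from −0.54 to 0.84 and adjusted p-values of 0.75 for Sox11 and 0.77 for Sox11K91A by limma-voom. The sign and the call turned on the controls: without control replicate 1 *Slit2* was called higher (0.62, adjusted p = 0.034, and 0.63, adjusted p = 0.041), and without control replicate 2 the values were −0.34 (adjusted p = 0.14) and −0.33 (adjusted p = 0.18), by limma-voom.

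*Slit3* (chr11:35121224-35708507, + strand), a ligand better known from muscle and vessels, had the lowest level of the Slits and the widest spread. Its level was 23.6 and 6.23 CPM in control, 5.02 and 0.875 CPM in Sox11, and 2.76 and 7.10 CPM in Sox11K91A libraries, from 660 counts in control replicate 1 down to 29 in Sox11 replicate 2. Both Sox11 libraries lay below both controls, whereas a Sox11K91A library lay above control replicate 2. The log2 fold change was −2.50 with Sox11 (SE 1.04, 95% confidence interval −4.95 to −0.04, adjusted p = 0.13, limma-voom) and −1.37 with Sox11K91A (SE 0.87, −3.42 to 0.68, adjusted p = 0.33, limma-voom), neither past the threshold. Replicates of *Slit3* differed by 1.92 on the log2 scale in control, 2.52 in Sox11 and 1.36 in Sox11K91A. Control replicate 1, its highest library, also held the most amacrine cell marker RNA, 112 TPM over 5 markers against 24.2 to 56.4 TPM in the other 5 libraries. Its sum over 5 astrocyte markers was also the highest, 24.2 TPM against 4.37 to 11.5 TPM. Of the 24.2 TPM, 22.6 TPM came from 1 gene, *Slc1a2*. Of the 5 markers, 3 stayed below 1 TPM in all 6 libraries, with *Gfap* at 0 TPM, so the sum does not show that astrocytes were present. The part of other cell types in the level of *Slit3* was not tested. Leaving out single libraries moved the log2 fold change of *Slit3* between −3.68 and −1.18 with Sox11, the smallest fall without Sox11 replicate 2. With Sox11K91A it moved between −2.44 and −0.51, the smallest fall without control replicate 1. Without both control replicate 2 and Sox11 replicate 2, it was −2.23 with Sox11 and −2.44 with Sox11K91A. With control replicate 2 and Sox11 replicate 2 kept and set as a block, *Slit3* was called lower with both viruses (−2.39, adjusted p = 0.012, and −2.47, adjusted p = 0.017, limma-voom).

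*Slit2* and *Slit3* each also hold a copy of the gene of miR-218 in an intron, at chr5:48223966-48223986 and chr11:35616840-35616860 for the mature strand, both on the + strand of GRCm38.p6. It is shown because it lies inside both ligand genes and is known to target *Robo1*; the mature RNA from RefSeq, with the seed at bases 2 to 8 in capitals, is the same for both copies.
miR-218-5p: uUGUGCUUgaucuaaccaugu
The entries of both hairpins held 0 counts in all 6 libraries, and mature miRNAs were not analysed here.

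**Figure D1:**
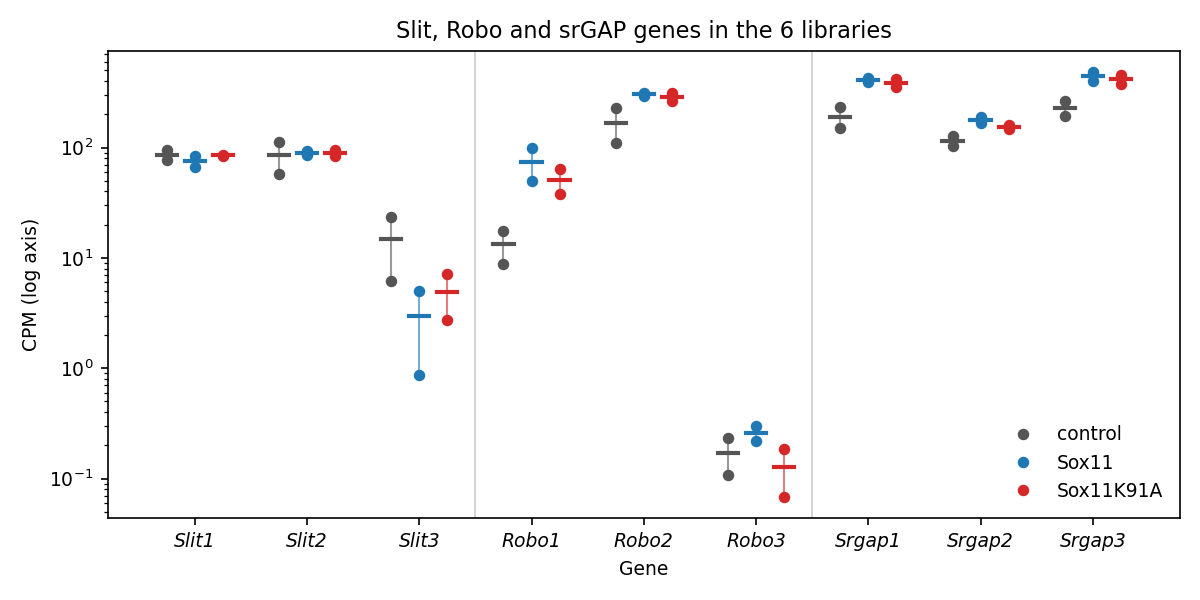
Level of each Slit, Robo and srGAP gene (x axis) in CPM on a log axis (y axis) in the control, Sox11 and Sox11K91A groups; points are the 2 libraries of a group, the vertical line joins them and the horizontal bar is their mean. *Robo1* lies at 8.80 and 17.7 CPM in control and at 38.0 CPM or above in the 4 libraries with Sox11 virus, while for *Slit1* and *Slit2* both groups with Sox11 virus overlap with control and *Robo3* stays below 1 CPM.

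On the TPM scale, which allows genes to be compared, the control group ran from *Robo2* (63.9 ± 44.8 TPM, SD, n = 2) through *Srgap3* (52.7 ± 14.1), *Srgap1* (49.0 ± 18.8), *Slit2* (35.7 ± 21.2), *Srgap2* (32.4 ± 6.36) and *Slit1* (31.4 ± 6.50) to *Slit3* (5.92 ± 4.73), *Robo1* (3.45 ± 1.83) and *Robo3* (0.125 ± 0.106). In that order only *Slit1* and *Slit3*, and *Robo1* and *Robo3*, were neighbours whose ranges did not touch. With Sox11 the order was *Robo2* (117 ± 1.32 TPM, SD, n = 2), *Srgap1* (110 ± 7.98), *Srgap3* (108 ± 16.1), *Srgap2* (54.8 ± 4.09), *Slit2* (38.2 ± 1.99), *Slit1* (28.5 ± 4.52), *Robo1* (20.4 ± 9.74), *Slit3* (1.30 ± 1.2) and *Robo3* (0.285 ± 0.177), in which *Srgap1* and *Srgap3*, and *Slit1* and *Robo1*, overlapped. The Sox11K91A group had the same order, from *Robo2* at 114 ± 22.9 TPM to *Slit3* at 2.35 ± 1.56 and *Robo3* at 0.125 ± 0.0778 TPM (SD, n = 2), and there *Robo1*, at 13.5 ± 4.97 TPM, lay below *Slit1*, at 31.3 ± 0.184 TPM, without overlap. *Robo1* and *Slit3* thus stood in the reverse order in both groups with Sox11 virus from that in control, where their ranges overlapped.

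Summed by family, the srGAP genes came to 162 and 106 TPM in control, 253 and 293 TPM in Sox11, and 264 and 226 TPM in Sox11K91A libraries. The Robo genes came to 100 and 34.6 TPM, 131 and 143 TPM, and 148 and 108 TPM in the same groups. Sums of the Slit genes were 96.0 and 50.0 TPM, 73.4 and 62.5 TPM, and 75.2 and 72.4 TPM. The srGAP and Robo sums of every library with Sox11 virus exceeded those of both controls, while the Slit sums of the 4 lay between the 2 control values. The ratio of the srGAP sum to the Slit sum was 1.69 and 2.12 in control and between 3.13 and 4.69 in the other 4 libraries. TPM depends on the length that RSEM gives a gene in each library, which was 7563 bases for *Robo1* in all 6 but ran from 4870 to 6263 bases for *Robo2*, with the largest value in control replicate 2.

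**Figure D2:**
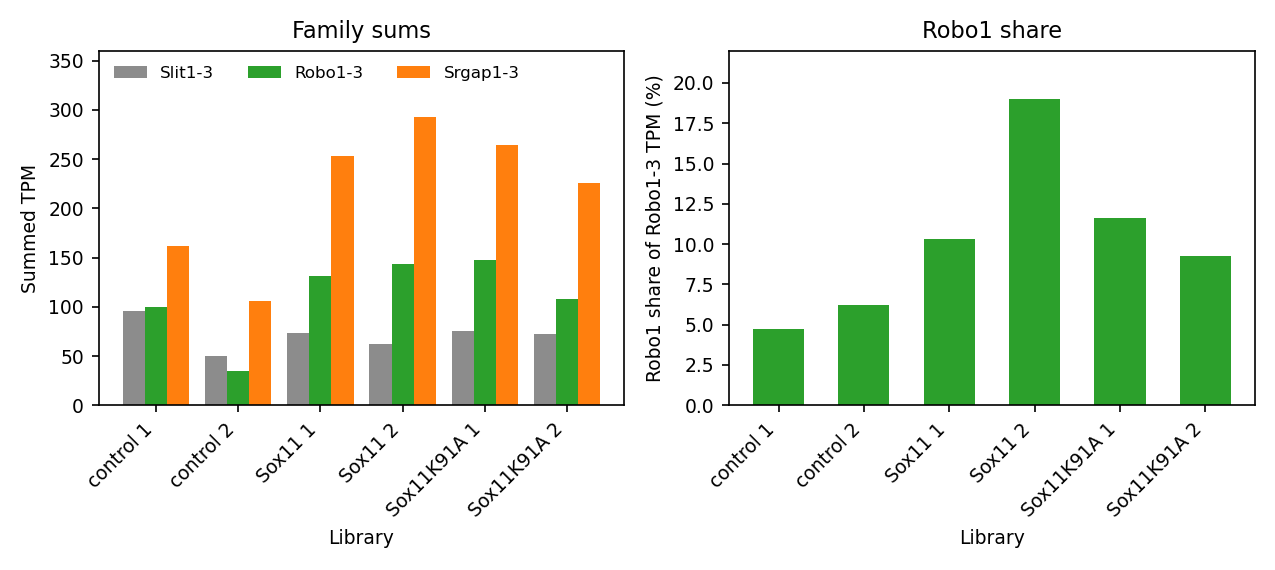
Left, summed TPM (y axis) of the Slit, Robo and srGAP genes in each of the 6 libraries (x axis); right, the share of *Robo1* in the summed TPM of the Robo genes, in percent, in the same libraries. Bars are single libraries: the srGAP sum lies between 226 and 293 TPM with either Sox11 virus and at 106 and 162 TPM in control, and the *Robo1* share is 9.27% to 19.0% against 4.72% and 6.22%.

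Counted over the members, 4 of the 8 genes tested were called higher with Sox11 (*Robo1*, *Srgap1*, *Srgap2*, *Srgap3*) and 0 lower, where 9.96% of all genes tested were called higher and 10.2% lower. Calls were made at an FDR (false discovery rate) below 0.05 plus a fold change, up or down, of more than 1.2. The median log2 fold change over the 8 was 0.78, against 0.01 over all genes tested. With Sox11K91A, 3 of the 8 were called higher (*Robo1*, *Srgap1*, *Srgap3*) and 0 lower, where 5.81% of all genes tested were higher and 4.81% lower. The median log2 fold change was then 0.64 against 0.02. Both comparisons share the control libraries, so they are not independent. Of the members, 6 had an unadjusted p under 0.05 with Sox11 and 5 with Sox11K91A by limma-voom, where 38.0% and 30.6% of all genes tested did. Without the libraries with low *Xist*, control replicate 2 and Sox11 replicate 2, 1 member was called with Sox11 (*Srgap1*) and 4 with Sox11K91A (*Robo1*, *Srgap1* and *Srgap3* higher, *Slit3* lower). In those fits 10.4% and 24.6% of all genes tested were called. Leaving out 1 library at a time gave 0 to 6 members called with Sox11 and 0 to 5 with Sox11K91A, the highest counts without control replicate 1. The share of all genes tested that was called ran from 0.0% to 23.8% and from 0.0% to 16.1%. The count of 0 without Sox11 replicate 2 came with 0 of all genes tested called by limma-voom in that fit, of which 3349 had an unadjusted p under 0.05. With Sox11K91A no member was called without control replicate 2, without Sox11K91A replicate 1 or without Sox11K91A replicate 2. In the last of these fits other genes were still called, and in the rest no gene was.

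**Figure D3:**
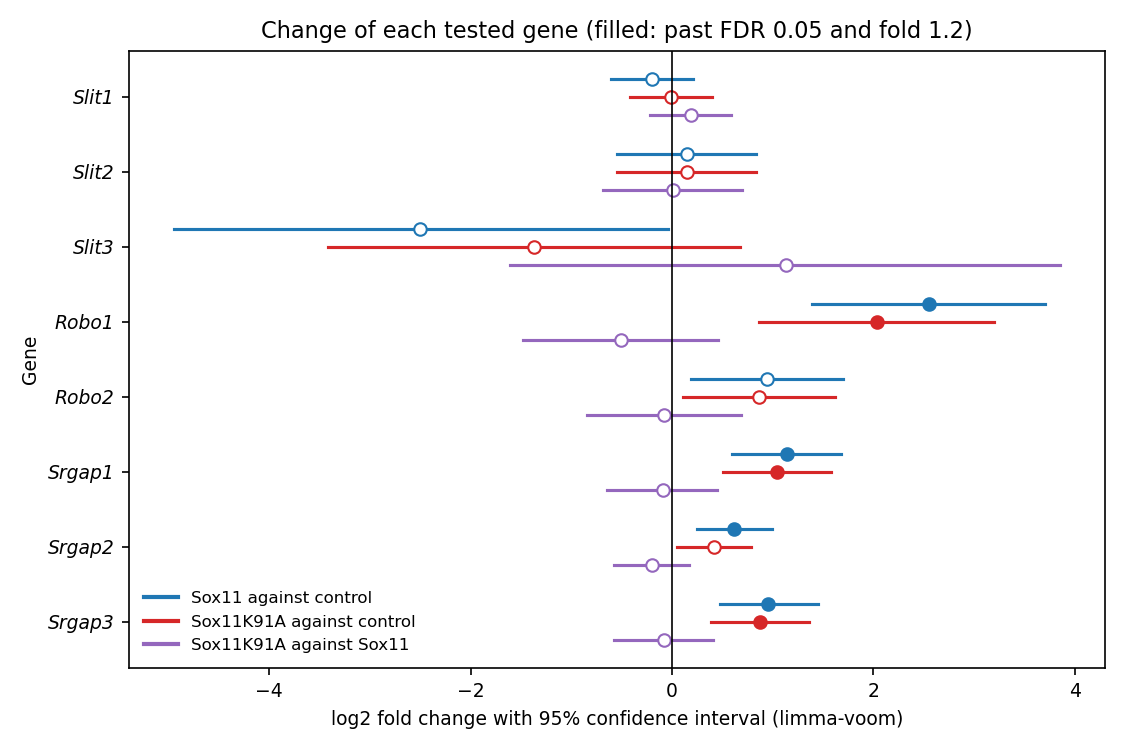
Log2 fold change (x axis) of the 8 tested genes (y axis) in the 3 comparisons, with 95% confidence intervals from limma-voom as horizontal lines; filled points passed an FDR of 0.05 and a fold change of 1.2. *Robo1* lies at 2.55 and 2.04 against control, the srGAP genes lie between 0.42 and 1.14, and every interval of Sox11K91A against Sox11 crosses 0.

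No member was called between Sox11K91A and Sox11, with adjusted p-values of 1.0 by limma-voom for the 8 genes tested. None had an unadjusted p under 0.05, and of all genes tested 0.0% were called in either direction and 108 had an unadjusted p under 0.05 by limma-voom, while edgeR called 0 and DESeq2 called 2, none of them a member. The 95% confidence intervals of the log2 difference, Sox11K91A minus Sox11, bound what these 4 libraries could hide. For the srGAP genes they were −0.64 to 0.45 for *Srgap1*, −0.57 to 0.17 for *Srgap2* and −0.57 to 0.41 for *Srgap3*. They were −0.84 to 0.69 for *Robo2*, −0.22 to 0.59 for *Slit1* and −0.68 to 0.70 for *Slit2*. For *Robo1*, at −0.51 (−1.48 to 0.46), and *Slit3*, at 1.13 (−1.61 to 3.86), the intervals still held differences larger than 2-fold in at least 1 direction. *Srgap2* passed the threshold with Sox11 and not with Sox11K91A, but the difference between the viruses was itself −0.20 and was not called (adjusted p = 1.0, limma-voom).

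Within the 4 libraries that received a Sox11 virus, the level of *Sox11* differed too, and it fell in the order Sox11 replicate 2, Sox11K91A replicate 1, Sox11 replicate 1 and Sox11K91A replicate 2. *Robo1* followed the same order, at 99.4, 64.1, 49.8 and 38.0 CPM, as did *Srgap1* at 429, 417, 392 and 354 CPM, *Srgap3* at 484, 457, 401 and 378 CPM, and *Robo2* at 313, 311, 294 and 265 CPM. *Slit3* ran in the opposite order, at 0.875, 2.76, 5.02 and 7.10 CPM. So 4 of the 8 members tested had the order of *Sox11* and 1 its reverse, where 12.5% of all other genes tested had the same order and 13.9% the reverse. The first principal component, with 62.9% of the variance, placed the 4 libraries in that order as well, and *Thy1* ran opposite to it, so the level of *Sox11* cannot be told apart from the other differences between these libraries.

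The pattern of *Robo1* over the 6 libraries was most like those of *Ptprd* (Pearson r = 0.9993), *Csnk1g1* (r = 0.9989) and *Pex26* (r = 0.9986), among 15746 genes compared on log2 CPM with an offset of 0.5. *Srgap1* was most like *Tcaf1* (r = 0.9996), *Slc5a7* (r = 0.9994) and *Slco5a1* (r = 0.9992). *Srgap3* was most like *Baz2b* (r = 0.9993) and *Arhgef7* (r = 0.9993), and *Srgap2* was most like *Fgd4* (r = 0.9979), *Ubqln2* (r = 0.9977) and *Ids* (r = 0.9977). Such values are common with 6 points in 3 groups that share their libraries: 1145 genes had an r above 0.95 with *Robo1*, 1006 with *Srgap1*, 1163 with *Srgap3* and 860 with *Srgap2*.

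The other genes of the pathway were taken from a list of 48. It held co-receptors, Slit-binding proteoglycans, adaptors, kinases, actin and microtubule regulators, and proteins that cleave, sort or degrade Robo. The list was chosen with earlier results of these data known, so its shares are a description and not a test. Of the 46 tested, 10 were called higher with Sox11 (21.7%, against 9.96% of all genes tested) and 4 lower (8.70%, against 10.2%), and with Sox11K91A 5 were higher (10.9%, against 5.81%) and 2 lower (4.35%, against 4.81%). *Robo4*, the receptor of vessels, and the transcription factor *Lhx9* were too low to be tested. Leaving out single libraries gave 0 to 21 pathway genes called with Sox11 and 0 to 13 with Sox11K91A, and without the 2 libraries with low *Xist* it was 7 and 18. The number of all genes called ran from 0 to 3742 and from 0 to 2529 in the first fits, and was 1630 and 3871 in the second. Between Sox11K91A and Sox11 0 of the 46 were called by limma-voom, and 0 had an unadjusted p under 0.05.

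Genes whose products degrade, cleave or stabilise Robo came first. *Nedd4l*, a ubiquitin ligase of a family that degrades Robo1, was at 69.6 and 54.5 CPM in control, 125 and 202 CPM in Sox11, and 162 and 119 CPM in Sox11K91A libraries, and rose with both viruses (log2 1.37, adjusted p = 0.021, and 1.17, adjusted p = 0.041, limma-voom). *Adam10*, the metalloprotease whose fly counterpart cleaves Robo, was at 74.4 and 77.4 CPM in control and 137 and 214 CPM in Sox11 libraries (log2 1.17, adjusted p = 0.019, limma-voom). With Sox11K91A it was not called (log2 0.84, adjusted p = 0.056, limma-voom). *Usp33*, a deubiquitinase that binds Robo1, rose with Sox11 by less (log2 0.57, adjusted p = 0.028, limma-voom) and was not called with Sox11K91A (log2 0.40, adjusted p = 0.09, limma-voom). *Nedd4*, *Ndfip1*, *Ndfip2* and the Robo-sorting *Prrg4*, named here after their values were seen, were not called with either virus. With Sox11 their adjusted p-values lay between 0.083 and 0.70 by limma-voom. *Cdh2*, or N-cadherin, whose adhesion Slit-Robo signalling turns down, had the largest rise among the genes called, from 141 and 138 CPM in control to 318 and 449 CPM in Sox11 and 355 and 302 CPM in Sox11K91A libraries (log2 1.44, adjusted p = 0.012, and 1.23, adjusted p = 0.020, limma-voom). The replicates of *Cdh2* differed by 0.03 on the log2 scale in control, 0.50 in Sox11 and 0.24 in Sox11K91A, less than either fold change.

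Downstream, the adaptor *Nck2* (log2 0.79 with Sox11 and 0.65 with Sox11K91A, adjusted p = 0.019 and 0.041, limma-voom) and the kinase *Pak1* that Nck recruits (1.18 and 1.04, adjusted p = 0.020 and 0.037, limma-voom) rose with both viruses, and *Pak2* rose with Sox11 (0.67, adjusted p = 0.042, limma-voom). The tyrosine kinase *Abl1*, which phosphorylates Robo, rose with Sox11 (0.90, adjusted p = 0.029, limma-voom), and its microtubule-binding partner *Clasp1* rose with both viruses (0.87 and 0.79, adjusted p = 0.027 and 0.048, limma-voom). The actin regulators of the Ena/VASP family went both ways, since *Evl* rose with Sox11 (0.70, adjusted p = 0.031, limma-voom) and *Vasp* fell (−0.65, adjusted p = 0.032, limma-voom). With Sox11K91A, *Pak2* (0.38, adjusted p = 0.20), *Abl1* (0.78, adjusted p = 0.056), *Evl* (0.59, adjusted p = 0.063) and *Vasp* (−0.56, adjusted p = 0.062) kept their sign but were not called, by limma-voom. *Pfn1*, profilin, which feeds actin to Ena/VASP proteins, was at 241 and 319 CPM in control, 146 and 124 CPM in Sox11, and 140 and 164 CPM in Sox11K91A libraries, and fell with both viruses (−1.04 and −0.87, adjusted p = 0.017 and 0.036, limma-voom). The GTPases themselves, *Rac1*, *Cdc42* and *Rhoa*, named here although below the threshold, were not called in either comparison. *Rhoa* was at −0.56 with Sox11 (adjusted p = 0.057) and −0.48 with Sox11K91A (adjusted p = 0.11), by limma-voom, without overlap with control. *Rac1* was at −0.21 (adjusted p = 0.34) and −0.24 (adjusted p = 0.33), by limma-voom, also without overlap with control. *Cdc42* was at −0.08 with both viruses and overlapped with control.

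Outside the cell, *Nell1*, a secreted protein related to the Robo3 ligand NELL2, fell the most. It was at 31.3 and 42.8 CPM in control, 7.75 and 3.26 CPM in Sox11, and 3.63 and 7.41 CPM in Sox11K91A libraries, all 4 below both controls (log2 −2.91, adjusted p = 0.013, and −2.84, adjusted p = 0.020, limma-voom). *Nell2* itself was abundant and did not pass the threshold, with 657 and 532 CPM in control and log2 fold changes of −0.06 (adjusted p = 0.84, limma-voom) with Sox11 and 0.05 (adjusted p = 0.88, limma-voom) with Sox11K91A. *Gpc1*, a glypican whose heparan sulphate chains bind Slit, fell with Sox11 (−0.64, adjusted p = 0.034, limma-voom) and was not called with Sox11K91A (−0.48, adjusted p = 0.096, limma-voom). *Dcc*, the netrin receptor that Robo can silence, had a large estimate but was not called (2.7, adjusted p = 0.055, and 2.22, adjusted p = 0.12, limma-voom); it is named after its values were seen, and its control libraries held 17.5 and 1.89 CPM.

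**Figure D4:**
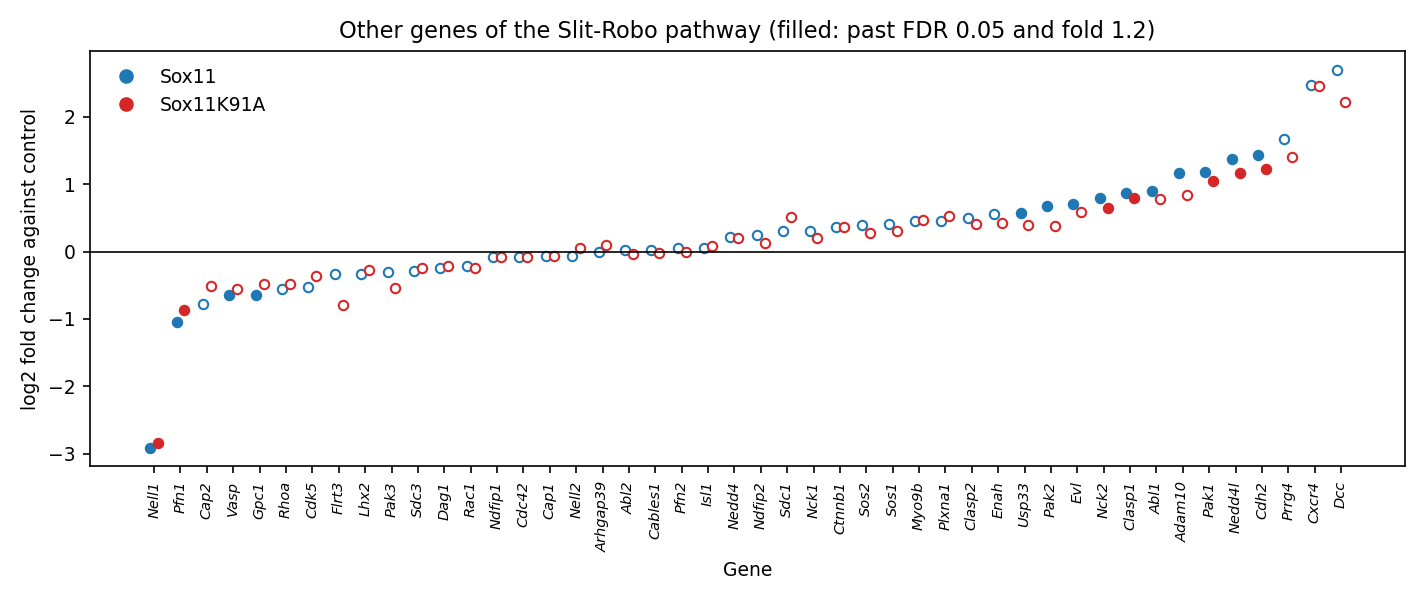
Log2 fold change against control (y axis) of the 46 tested pathway genes (x axis, ordered by the Sox11 value) for Sox11 and Sox11K91A; filled points passed an FDR of 0.05 and a fold change of 1.2. *Nell1* lies lowest, at −2.91 and −2.84, *Cdh2* is the highest filled gene, at 1.44 and 1.23, and the 3 genes to its right did not pass the threshold.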

How the data were processed

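Per the labels and the study's methods, reads were aligned to mm10 with STAR and counted with RSEM, and limma was named for testing. For each of the 6 libraries the authors deposited the RSEM expected count, which was not normalized, and the TPM, scaled per library, for 69690 entries. Lengths per gene were deposited beside them. Of the values above 0, 80.9% to 82.8% were whole; 26344 entries other than Ensembl mouse genes held at most 1 count and were left out. Neither tool versions nor the annotation or strand setting are given in the sources used here. Symbols and coordinates came from GENCODE M21, promoter windows and miRNAs from RefSeq (GRCm38.p6), where 8 of the 9 members had a window. Of 26 annotated genes that overlap the members, 14 had an entry, with at most 14 counts each over all libraries, and 12 had none.

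Expected counts were rounded, filtered with filterByExpr of edgeR 4.0.16, scaled with TMM factors (0.985 to 1.04) and tested for 15747 genes by two-sided limma-voom (limma 3.58.1, R 4.3.3), with all 6 libraries in 1 fit and no covariate, Benjamini-Hochberg adjustment, calls at an FDR below 0.05 with a fold change of more than 1.2 either way. The members, the pathway list, the marker lists and the rules for genes named were chosen with earlier results of these data known. Named were the members, *Sox11*, pathway genes past the threshold and the 3 genes most like each called member, of which 1 is not reported here. Replicates were not copies of each other, with median absolute log2 differences of 0.34, 0.258 and 0.156 in control, Sox11 and Sox11K91A. On simulated counts with 200 changed genes, the test recovered 86%, 85% and 86% of changes of 2 on the log2 scale and 26%, 18% and 23% of changes of 1, for Sox11 against control, Sox11K91A against control and Sox11K91A against Sox11, and 13.8%, 5.50% and 8.40% of calls were false. A miss at about 2-fold was therefore common on these simulated counts. The comparisons of Sox11 and Sox11K91A with control called 3171 and 1672 genes, far more than the 200 changed here. The simulated shares therefore need not hold for them. Alternatives were edgeR's quasi-likelihood test, DESeq2 1.42.0, sample quality weights, limma-trend on log2(TPM + 1) or log2(TPM + 0.1), DESeq2 size factors, library size alone, no filter, at least 10 counts in every library, only the groups compared, blocks for the replicate number or for the libraries with low *Xist*, other fold thresholds and leaving out libraries. An exchanged replicate block and a fit without both libraries with low *Xist* were added after seeing the data.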

Additional observations from a re-analysis of the deposited data

How the results depend on the processing

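Of the members, the number called with Sox11 (4) was 1 with sample quality weights or without both libraries with low *Xist*, 2 at a fold change above 2, and 0 to 6 when single libraries were left out. The number called with Sox11K91A (3) was 1 with edgeR or with only the groups compared, 0 with limma-trend on log2(TPM + 1) or log2(TPM + 0.1), and 0 to 5 when single libraries were left out. For the pathway list with Sox11 (14) it was 5 with quality weights, 7 with only the groups compared, 7 without both libraries with low *Xist*, 6 at a fold change above 2 and 0 to 21 when single libraries were left out. With Sox11K91A (7) it was 15 with DESeq2, 4 with either limma-trend fit, 12 with low *Xist* as a block, 12 with the exchanged replicate block, 18 without both libraries with low *Xist*, 4 at a fold change above 2 and 0 to 13 when single libraries were left out. The share of all genes tested that was called moved as well. With Sox11 it was 20.1% in the main fit, 6.22% with quality weights and 10.4% with only the groups compared. With Sox11K91A it was 10.6% in the main fit, 9.05% with edgeR and 10.8% with only the groups compared. The limma-trend fits gave 5.94% and 5.69% there, DESeq2 20.0%, the block for low *Xist* 18.4% and the exchanged block 17.5%. The cause of these shifts was not tested. Between Sox11K91A and Sox11 both counts were 0 under all alternatives run. In fits with 1 library left in a group, that library was assumed to vary like those of the other groups.

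The direction of *Robo1*, *Robo2* and the srGAP genes against control held in all 18 alternatives, with log2 fold changes with Sox11 of 1.49 to 3.04 for *Robo1*, 0.76 to 1.46 for *Srgap1*, 0.60 to 1.19 for *Srgap3*, 0.39 to 0.77 for *Srgap2* and 0.38 to 1.48 for *Robo2*. *Robo1* passed the threshold in 14 of them with Sox11 and 10 with Sox11K91A, *Srgap1* in 17 and 12, *Srgap3* in 14 and 10, *Srgap2* in 11 and 1, and *Robo2* in 3 and 1. *Slit3* was called lower with the block for low *Xist*, at −2.39 with Sox11 and −2.47 with Sox11K91A. No scaling moved the median log2 fold change of all genes by over 0.1.

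Small values changed sign. Against control with Sox11K91A, *Slit1* was 0.012 and 0.013 on log2(TPM + 1) and log2(TPM + 0.1) and −0.17 to 0.14 with single libraries left out, and *Slit2* was −0.12 with the block for low *Xist*, −0.33 without both libraries with low *Xist* and −0.33 to 0.63 with single libraries left out. With Sox11, *Slit2* was −0.27 without both libraries and −0.34 to 0.62 with single libraries left out. Between Sox11K91A and Sox11, the block for low *Xist* gave −0.26 for *Slit2* and −0.081 for *Slit3*, and the fit without both libraries gave −0.058 for *Slit2*, −0.21 for *Slit3* and 0.048 for *Srgap3*. Leaving out single libraries there gave −0.088 to 0.10 for *Slit2*, −0.20 to 2.30 for *Slit3*, −0.19 to 0.03 for *Robo2*, −0.21 to 0.019 for *Srgap1*, −0.22 to 0.051 for *Srgap3* and −0.72 to 0.044 for *Sox11*.

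The replicate numbers do not pair the libraries by any label. The correlation of the deviations of equally numbered libraries from their group means was 0.259 for Sox11 with control, −0.045 for Sox11K91A with control and −0.282 for Sox11K91A with Sox11. With the replicate number as a block, 3 members were called with Sox11, since *Srgap2* missed (adjusted p = 0.054, limma-voom), and 3 with Sox11K91A. Over all genes that block gave 2679 and 1402 calls, against 3171 and 1672 without it. With the numbers of the Sox11K91A libraries exchanged, chosen after seeing the data, 5 members were called with Sox11 and 4 with Sox11K91A. In each count 1 was *Slit3*, lower. Calls over all genes rose too with the exchanged block, to 4076 and 2753.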
